A study of Rattus norvegicus with 4 samples.

Results

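Respiratory complex I is the NADH:ubiquinone oxidoreductase of the mitochondrial inner membrane, and its nuclear subunits and assembly factors were followed here in a rat hepatic stellate cell line treated with ginsenoside Rk1. The members were the protein-coding rows of the deposited count table whose symbol is Nduf followed by a, b, c, s, v, ab or af and a number. That rule gave 44 rows of 32883, of which 36 carry subunit names and 8 are Ndufaf assembly factors. Ndufv3 stands on 2 identifiers, so the 44 rows hold 43 symbols. The HIF-inducible relative Ndufa4l2 is outside the rule and is set beside the members where it bears on them.

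HSC-T6 is an immortalised rat hepatic stellate cell line, the liver cell type that turns into a collagen-producing myofibroblast on activation. RNA was sequenced from 2 libraries of HSC-T6 cells treated with Rk1, a saponin of processed ginseng written GRK1 in the labels, and from 2 libraries of HSC-T6 cells with no treatment. No dose, duration, vehicle or genetic change is given in the labels, and all libraries are of this 1 line. Whether the paired libraries of each group came from independent cultures is not said, so every p-value below reflects library-to-library spread alone, possibly of technical origin.

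Complex I takes electrons from NADH, passes them along iron-sulfur clusters in a peripheral arm that points into the matrix, reduces ubiquinone where the arms meet, and pumps protons through a membrane arm. Core subunits carry out catalysis; those of the membrane arm are encoded on the mitochondrial chromosome, and those of the peripheral arm in the nucleus. Accessory subunits surround the core, and assembly factors join the growing complex and leave it before it is finished. The roles given below come mainly from human and bovine complex I. Stellate cell activation is known to involve higher glycolysis, and the series title places glycolysis and ferroptosis at the centre of the study.

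Libraries held 18008586 and 18125005 counts with Rk1 and 20430930 and 18175053 counts without treatment. The members took 0.263% of all counts in each Rk1 library, and 0.261% and 0.266% in the untreated libraries, so the summed share with Rk1 lay inside the untreated range. Of 11 stellate cell markers, Col1a1, Col3a1, Vim, Pdgfrb and Des were among those detected, while Lrat and Reln, which mark quiescent stellate cells in vivo, had 0 counts in all libraries and Hand2 at most 1. Of the detected ones, Col1a1, Col3a1, Acta2, Tagln and Gfap were lower with Rk1 (adjusted p of 0.0064 or below in edgeR's test). In the same test Vim (log2 fold change -0.08, adjusted p = 0.18) and Pdgfrb (-0.31, adjusted p = 0.072) were not called. Des lay above 0 and was not called either (0.37, adjusted p = 0.13). The part of these marker differences in the results below was not tested. Of 16 markers of hepatocytes, endothelial cells, leukocytes and cholangiocytes, 15 had at most 5 counts in every library and the macrophage marker Cd68 at most 30.

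Most complex I transcripts were measured precisely and few were called as different. Of the 44 rows, 42 had enough counts for the test, with 96 to 3622 counts in a library. In edgeR's quasi-likelihood test, adjusted over all 12316 genes tested, 2 members were higher and 3 lower with Rk1 at an adjusted p under 0.05. That is 11.9% of the tested members, where 22.0% of all genes tested were called (11.5% higher and 10.5% lower). The 5 were Ndufa12, Ndufa5 and Ndufs8, which fell, and Ndufs5 and Ndufb4, which rose. At an unadjusted p under 0.05 in the same test, 12 of the 42 members stood out, 5 above and 7 below 0. Over all 12316 genes tested, 4430 did, with 2291 above and 2139 below 0. The median log2 fold change was 0.01 over the members and 0.00 over all genes tested, and 18 of 42 members lay below 0 against 49.7% of all genes.

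The called members were all subunits, and a difference between subunits and assembly factors in the share called was not tested. Of 34 tested subunits 2 rose and 3 fell (14.7%, against 22.0% of all genes tested), with a median log2 fold change of 0.02 and a range of -0.58 to 0.27. Of 8 tested assembly factors 0 rose and 0 fell, with a median of 0.01 and a range of -0.17 to 0.16. That median was -0.0462 without untreated replicate 1 and 0.0514 without untreated replicate 2, so its sign rests on single libraries. No assembly factor had an unadjusted p under 0.05 in edgeR's test, and 0 of the 8 were called by DESeq2 or limma-voom. The assembly factors had fewer reads, a median of 390 counts against 1116 for subunits, and their intervals were wider. The 95% intervals of the 29 uncalled subunits ran from -0.31 to 0.43 (0.809-fold to 1.35-fold), and those of the 8 assembly factors from -0.55 to 0.36 (0.684-fold to 1.28-fold), so changes beyond those bounds were outside the unadjusted interval of every uncalled member. Libraries of the 2 groups did not overlap in 28 of the 42 members, with Rk1 above untreated in 14 and below in 14, while over all genes tested 32.1% lay above and 30.9% below.

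**Figure D1:**
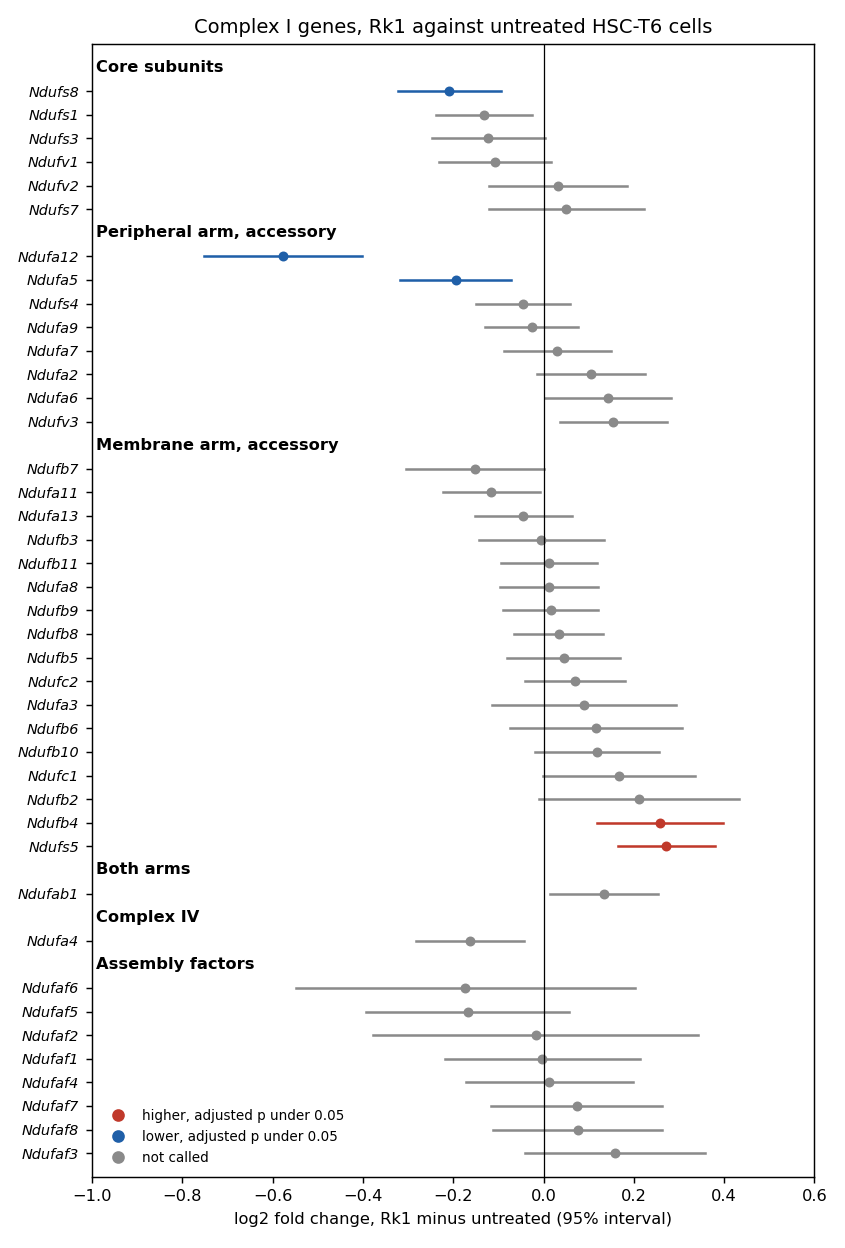
Log2 fold change (Rk1 minus untreated, x axis) of tested complex I genes (rows; 1 core subunit is not drawn), grouped by place in the complex, with the 95% interval as a line; n = 2 libraries per group. Ndufa12 sits alone at -0.58 on the left, Ndufs5 (0.27) and Ndufb4 (0.26) are the called genes on the right, and the intervals of all 8 assembly factors include 0.

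The promoters of the 5 called members are shown because these are the members called as different. Each stretch is the 120 bases before the annotated start, from RefSeq on GRCr8, 5′ to 3′ along the gene. Capitals mark matches on either strand to CCGGAAG, a core site of ETS factors such as GABPA (NRF2 of the mitochondrial literature), to GCGCATG, a word of the palindromic NRF1 site, and to ACGTG or GCGTG, the core of the hypoxia response element.
Ndufa12 (chr7:30658196-30658315, plus strand): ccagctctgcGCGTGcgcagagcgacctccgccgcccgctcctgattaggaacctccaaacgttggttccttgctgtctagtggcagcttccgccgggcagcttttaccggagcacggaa
Ndufa5 (chr4:53971236-53971355, minus strand): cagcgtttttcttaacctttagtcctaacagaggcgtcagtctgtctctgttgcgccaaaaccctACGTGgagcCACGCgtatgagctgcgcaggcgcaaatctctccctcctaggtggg
Ndufs8 (chr1:210573699-210573818, minus strand): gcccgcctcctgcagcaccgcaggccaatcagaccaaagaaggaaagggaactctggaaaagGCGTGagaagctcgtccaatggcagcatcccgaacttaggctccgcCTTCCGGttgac
Ndufs5 (chr5:141264403-141264522, minus strand): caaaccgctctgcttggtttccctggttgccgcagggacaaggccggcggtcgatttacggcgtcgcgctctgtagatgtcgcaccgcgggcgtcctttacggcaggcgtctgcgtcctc
Ndufb4 (chr11:76569058-76569177, plus strand): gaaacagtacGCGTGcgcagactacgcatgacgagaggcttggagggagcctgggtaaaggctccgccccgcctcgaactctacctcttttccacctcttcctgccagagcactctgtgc

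The letters do not split the called members by direction. Ndufa12, which fell, and Ndufb4, which rose, both hold GCGTG 110 bases before the start, and the stretch of Ndufs5 holds none of the 4 motifs. Over the 250 bases before the start, 39 of the 43 member symbols had a RefSeq promoter in the table used. CCGGAAG stood in 23.1% of the 39 member promoters, against 7.27% of all 33469 promoters in that table. GCGCATG stood in 15.4% of member promoters, against 3.26% of all. ACGTG or GCGTG stood in 53.8% of member promoters, against 36.7% of all. By class that was 46.9% of 32 subunit promoters and 85.7% of 7 assembly factor promoters. Member promoters were also richer in G and C (median 56.4% against 51.2%). A match is a stretch of letters and not a measured binding site.

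Of the 7 nuclear core subunits 1 was called, as lower, where 10.5% of all genes tested were called lower. The log2 fold change was below 0 in 5 of the 7, against 49.7% of all genes tested, and above 0 in Ndufs7 and Ndufv2. Ndufs8, which holds iron-sulfur clusters on the way to ubiquinone, had 54.8 and 52.5 CPM (counts scaled to the TMM-adjusted library size) in the Rk1 libraries, against 62.3 and 61.7 CPM in the untreated libraries. The groups did not overlap, and Ndufs8 fell by 0.21 ± 0.05 on the log2 scale (± SE, 0.866-fold, adjusted p = 0.022). This gene (ENSRNOG00000017446) is on the minus strand of chromosome 1, from 219141292 to 219144610 of Rnor_6.0, and overlaps Unc93b1 on the opposite strand over 406 bases. Unc93b1, an adaptor of endosomal Toll-like receptors, was not called (log2 fold change 0.07 ± 0.05, adjusted p = 0.37), and since the strand setting is not known, reads of the shared stretch cannot be told apart.

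Ndufs8 was not called by DESeq2 (adjusted p = 0.139), nor when either untreated library (0.112 without replicate 1, 0.0887 without replicate 2) or the second Rk1 library (0.101) was left out, within a range of 0.0143 to 0.139 over 13 alternatives, and its log2 fold change stayed between -0.24 and -0.18.

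Among the other core subunits, Ndufs1, Ndufv1 and Ndufs3 had both Rk1 libraries below both untreated libraries without being called. The same order was found in 30.9% of all genes tested. Ndufs1, the large cluster-bearing subunit of the NADH end, had 157 and 165 CPM with Rk1 and 178 and 174 CPM untreated (log2 fold change -0.13 ± 0.05, adjusted p = 0.081). Ndufv1, which binds NADH and the flavin, had 123 and 117 CPM with Rk1 and 125 and 133 CPM untreated (-0.11 ± 0.05, adjusted p = 0.19). Each of these had its Rk1 libraries on the low side, and none passed the test. Ndufs3, a core subunit of the ubiquinone end without a cluster, had 43.5 and 41.6 CPM with Rk1 and 47.0 and 45.7 CPM untreated (-0.12 ± 0.05, adjusted p = 0.15).

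Ndufs7 and Ndufv2 overlapped between the groups. Ndufs7, which carries the last cluster before ubiquinone, had 25.5 and 24.4 CPM with Rk1 and 24.6 and 23.5 CPM untreated (0.05 ± 0.07, adjusted p = 0.67). Ndufv2, the partner of Ndufv1, had 88.3 and 82.1 CPM with Rk1 and 79.0 and 87.8 CPM untreated (0.03 ± 0.07, adjusted p = 0.77).

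Ndufa12 showed the largest fold difference of the tested members. It encodes an accessory subunit that sits on the peripheral arm and is added late, in the place held until then by its relative Ndufaf2. Ndufa12 had 314 counts in each Rk1 library, against 522 and 474 counts in the untreated libraries. Scaled to library size that was 17.4 ± 0.18 CPM with Rk1 and 25.9 ± 0.24 CPM untreated (SD, n = 2 each). The Rk1 libraries lay well below the untreated ones, with a gap far wider than the spread within either pair. Ndufa12 fell by 0.58 ± 0.07 on the log2 scale (0.671-fold, 95% interval -0.75 to -0.40, adjusted p = 0.0020). The call held under all 13 alternatives, between -0.59 and -0.56, with an adjusted p of 0.0104 at most.

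Ndufa12 (ENSRNOG00000007407) lies on chromosome 7 at 35125424 to 35167406 of Rnor_6.0, plus strand, and overlaps no other annotated gene. A row described as similar to Ndufa12, the lincRNA LOC100910710, had 2 and 5 counts with Rk1 and 2 and 3 untreated. Ndufaf2, the late assembly factor that Ndufa12 displaces, had 5.34 and 5.27 CPM with Rk1 and 4.98 and 5.77 CPM untreated, and was not called (log2 fold change -0.02 ± 0.15, adjusted p = 0.95). At about 100 counts a library, its 95% interval of -0.38 to 0.34 leaves changes of that size undetected.

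Among the other accessory subunits of the peripheral arm, Ndufa5 was called and 6 were not. With Ndufa12, 2 of the 8 tested in this class fell and 0 rose (25%). Of all genes tested, 22.0% were called and 10.5% were called lower. Ndufa5, which packs against Ndufs3 and enters the complex early, had 60.4 and 57.4 CPM with Rk1 and 65.8 and 69.1 CPM untreated. It fell by 0.19 ± 0.05 on the log2 scale (0.874-fold, adjusted p = 0.037), with no overlap between the groups. It was not called by DESeq2 (adjusted p = 0.169) or with any 1 library left out (0.065 and 0.17 without untreated replicates 1 and 2, 0.0553 and 0.158 without Rk1 replicates 1 and 2), within a range of 0.0228 to 0.17. Ndufa5 (ENSRNOG00000005698) lies on chromosome 4 at 51590413 to 51598771, minus strand.

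The uncalled accessory subunits of this arm went both ways. Ndufv3, which sits beside the flavin site, had the highest log2 fold change of them, with 64.2 and 61.5 CPM with Rk1 and 57.6 and 55.2 CPM untreated (0.15 ± 0.05, adjusted p = 0.069). Ndufa6, which anchors an acyl carrier protein (0.14 ± 0.06, adjusted p = 0.13), and Ndufa2, a thioredoxin-fold subunit (0.10 ± 0.05, adjusted p = 0.19), were also above 0. Ndufa7 (0.03), Ndufa9, which lines the way to the ubiquinone site (-0.03), and Ndufs4, a subunit whose loss causes Leigh syndrome in humans (-0.05), lay close to 0. Ndufab1, the mitochondrial acyl carrier protein found in both arms, had 51.3 and 52.8 CPM with Rk1 and 48.3 and 46.6 CPM untreated (0.13 ± 0.05, adjusted p = 0.11).

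In the membrane arm Ndufs5 and Ndufb4 rose. They are 2 of 17 tested accessory subunits, or 11.8%, which is near the 11.5% of all genes called higher, and 0 fell by edgeR's test. The log2 fold change had a median of 0.04 and lay above 0 in 13 of the 17, against 6194 of all 12316 genes tested. At an unadjusted p under 0.05 in edgeR's test there were 2 above and 1 below 0. By DESeq2, Ndufs5 and Ndufb4 were called and no other of this arm. Ndufs5, a small subunit on the intermembrane-space face, had 66.1 and 65.5 CPM with Rk1 and 54.0 and 55.0 CPM untreated. Both Rk1 libraries lay above both untreated ones, and Ndufs5 rose by 0.27 ± 0.05 on the log2 scale (1.21-fold, 95% interval 0.16 to 0.38, adjusted p = 0.0063). It was called under all 13 alternatives, between 0.26 and 0.28, with an adjusted p of 0.038 at most. Ndufs5 (ENSRNOG00000026646) is on the minus strand of chromosome 5, from 141390580 to 141405453, and overlaps no other annotated gene.

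Ndufb4, an accessory subunit of the far end of the membrane arm, had 128 and 131 CPM with Rk1 and 114 and 102 CPM untreated. The Rk1 libraries were the higher ones and the untreated pair was the more scattered. Ndufb4 rose by 0.26 ± 0.06 on the log2 scale (1.20-fold, adjusted p = 0.021). It was not called without untreated replicate 2 (0.18, adjusted p = 0.098) or without Rk1 replicate 2 (0.24, adjusted p = 0.0678), within a range of 0.00442 to 0.098. Ndufb4 (ENSRNOG00000002721) lies on chromosome 11 at 65960277 to 65966898, plus strand. A row described as the same subunit, LOC100361934 on the X chromosome, had 55 and 69 counts with Rk1 and 64 and 70 untreated, against 2294 and 2391 with Rk1 and 2313 and 1864 untreated for Ndufb4, and reads of near-identical copies can be divided or dropped in counting.

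The remaining 15 tested membrane-arm subunits were not called. The lowest was Ndufb7 at -0.15 ± 0.07, followed by Ndufa11 at -0.12 ± 0.05, a subunit at the joint with complex III in the supercomplex. The highest were Ndufb2 (0.21 ± 0.09, adjusted p = 0.16) and Ndufc1 (0.17 ± 0.07, adjusted p = 0.14). Ndufb3, Ndufb8, Ndufb9, Ndufb11, Ndufa8 and Ndufa13, also known as the cell-death gene GRIM-19, all lay between -0.04 and 0.03. Ndufb6 (0.12 ± 0.08) overlaps Topors on the same strand over 212 bases, and Topors, a ubiquitin and SUMO ligase, rose by 0.23 ± 0.05 (adjusted p = 0.011).

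**Figure D2:**
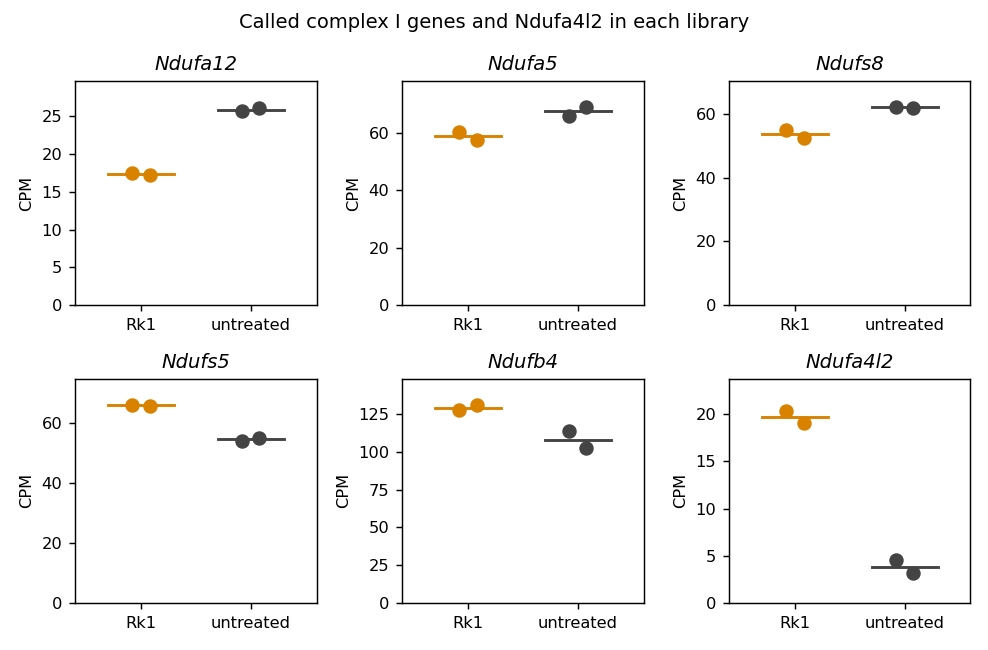
CPM in each library (points) with the group mean (bar), Rk1 left and untreated right, for the 5 called members and for Ndufa4l2, each on its own axis from 0. No panel has overlapping groups; the drop of Ndufa12 to 17.4 CPM with Rk1, against 25.9 CPM untreated, is the widest among the members as a fold (0.671-fold).

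None of the 8 assembly factors was called, where 22.0% of all genes tested were. The groups overlapped in 5 of 8, a larger share than the 4557 of 12316 over all genes tested. Ndufaf1, which belongs to the membrane-arm assembly complex with Acad9 and Ecsit, had 15.8 and 16.6 CPM with Rk1 and 15.5 and 16.9 CPM untreated (-0.0022 ± 0.09, adjusted p = 0.99). Ndufaf3, which with Ndufaf4 escorts the early peripheral arm, had 23.2 and 24.5 CPM with Rk1 and 20.2 and 22.5 CPM untreated (0.16 ± 0.09, adjusted p = 0.23). Its partner Ndufaf4 had 28.1 and 31.5 CPM with Rk1 and 28.6 and 30.5 CPM untreated (0.01 ± 0.08, adjusted p = 0.93). Ndufaf3 was thus the only one of this pair whose groups did not overlap, by less than 1 CPM, and neither passed the test.

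Enzymes that modify core subunits were also near the untreated level. Ndufaf5, which hydroxylates an arginine of Ndufs7, had 20.3 and 22.9 CPM with Rk1 and 22.9 and 25.7 CPM untreated (-0.17 ± 0.10, adjusted p = 0.25). Its partner Ndufaf8 had 20.1 and 19.4 CPM with Rk1 and 18.5 and 19.1 CPM untreated (0.08 ± 0.08, adjusted p = 0.55). Ndufaf7, an arginine methyltransferase, had 24.5 and 22.5 CPM with Rk1 and 22.9 and 21.8 CPM untreated (0.07 ± 0.08, adjusted p = 0.56). The 2 modifying enzymes thus lay on opposite sides of 0 with intervals that include 0. Ndufaf6, which is needed for an early step around the mitochondrially encoded Nd1 protein, had 5.45 and 5.38 CPM with Rk1 and 5.47 and 6.76 CPM untreated (-0.17 ± 0.16, adjusted p = 0.49), from about 100 counts a library.

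Levels per transcript length were lower for most assembly factors than for most subunits, with ranges that overlapped. Expressed as CPM per kilobase of annotated exon and averaged over the 4 libraries, the 34 tested subunits ranged from 19.4 to 262 with a median of 83.5. The 8 assembly factors ranged from 5.02 for Ndufaf2 to 42.6 for Ndufaf8, with a median of 9.69. Ndufb4 (262), Ndufb8 (239) and Ndufb9 (207) headed the order, and Ndufaf1, Ndufaf6 and Ndufaf2 closed it. Core subunits stand in equal number in the finished complex, and among those described here Ndufs7 was at 25.0 and Ndufv2 at 94.8. Ndufab1, at 19.4, was the lowest subunit tested, with an annotated exon length of 2562 bases. These values depend on the annotated exon length, which may exceed what the cells transcribe.

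**Figure D3:**
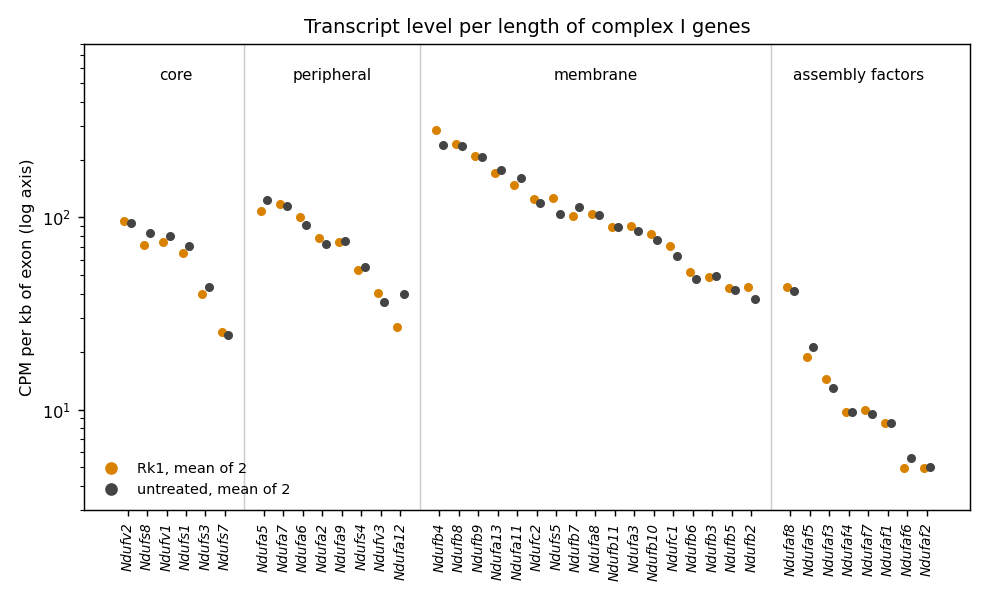
Level per length (CPM per kb of exon, log axis) of tested genes of the core (1 is not drawn), the accessory subunits of each arm and the assembly factors, as the mean of 2 Rk1 libraries (left point of each pair) and of 2 untreated libraries. The order within classes is close in both groups, Ndufa12 shows the widest gap within a pair, and 7 of the 8 assembly factors lie below every core subunit drawn.

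The remaining 2 rows had too few counts to be tested. Ndufa1, a small membrane-arm subunit, had 5 and 5 counts with Rk1 and 3 and 2 untreated, while LOC108348144, described as the same subunit on the X chromosome, had 8 and 5 counts with Rk1 and 9 and 4 untreated. The second Ndufv3 row, 327 bases of exon on chromosome 13, had 0 and 1 counts with Rk1 and 1 and 0 untreated. Low counts of such rows do not measure the gene where a near-identical copy exists. Ndufa10, Ndufb1 and Ndufs6 have no row that the rule takes. Ndufa10l1, a row whose symbol the rule leaves out, was not called (log2 fold change -0.07, adjusted p = 0.43).

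Ndufa4 carries a complex I name and is now assigned to cytochrome c oxidase, complex IV. It had 106 and 114 CPM with Rk1 and 124 and 123 CPM untreated, and was not called (-0.16 ± 0.05, adjusted p = 0.062). Its relative Ndufa4l2, which hypoxia-inducible factor switches on and which is known to lower complex I activity, moved far more. Ndufa4l2 had 20.4 and 19.0 CPM with Rk1 and 4.53 and 3.19 CPM untreated, and rose 5.07-fold (2.34 ± 0.16, adjusted p = 1.4e-04). Ndufa4 overlaps Phf14 on the opposite strand over 121 bases, and Phf14 was not called (-0.03 ± 0.05).

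The complex I genes of the mitochondrial chromosome stood apart from the nuclear members. Of 7 such genes, all core subunits of the membrane arm, 4 rose and 0 fell by edgeR's test, with a median log2 fold change of 0.37. Over all genes tested, 11.5% were called higher and 10.5% lower. At an unadjusted p under 0.05 in edgeR's test there were 5 above and 0 below 0. Of all 12316 genes tested, 2291 lay above and 2139 below 0 at that threshold. Mt-nd5, a proton-pumping subunit, had 1438 and 1457 CPM with Rk1 and 886 and 944 CPM untreated (0.66 ± 0.04, adjusted p = 1.2e-04). Mt-nd4l had 161 and 159 CPM with Rk1 and 81.4 and 96.2 CPM untreated (0.85 ± 0.08, adjusted p = 4.1e-04), and Mt-nd2, another pumping subunit, rose by 0.30 ± 0.03 (adjusted p = 7.1e-04). Mt-nd1 was not called (0.08 ± 0.04, adjusted p = 0.18), nor was Mt-nd6 (-0.08 ± 0.06, adjusted p = 0.41), which overlaps Mt-nd5 on the opposite strand over 23 bases. DESeq2 also called 4 higher and 0 lower.

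Genes of the mitochondrial chromosome together took 3.60% and 3.68% of counts with Rk1 and 3.11% and 3.24% untreated. The part of that higher share in the results of single genes was not tested. Mt-nd4 was at 13.1 CPM per kilobase with Rk1 and 9.30 untreated, far under the 3330 and 3145 of Mt-nd1, and it overlaps Mt-nd4l over 7 bases. In bulk RNA, fewer cells with a transcript and less transcript per cell cannot be told apart.

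Other nuclear genes around complex I were counted in the same way, against 22.0% of all genes tested called. Of 11 tested assembly factors outside the Ndufaf names, 1 fell and 0 rose. It was Acad9, a member of the membrane-arm assembly complex (-0.18 ± 0.05, adjusted p = 0.033 by edgeR). DESeq2 did not call it (adjusted p = 0.233). Of 39 tested rows of complexes II to V, 2 rose and 3 fell (12.8%), with a median of 0.03. The fallen ones were Atp5mc1 (-0.20 ± 0.05), Atp5f1a (-0.14 ± 0.04) and Atp5f1b (-0.13 ± 0.04), all of ATP synthase, which had 15 tested rows. The risen ones were Uqcrh of complex III (0.27 ± 0.07) and Cox7c of complex IV (0.19 ± 0.05). By DESeq2 the 3 of ATP synthase and 1 gene of complex III were called, and Cox7c was not (adjusted p = 0.0649). Complex II had 4 tested genes, each with both Rk1 libraries below both untreated ones, as in 30.9% of all genes tested, and 0 called by edgeR, with 1 at an unadjusted p under 0.05 and 0 by DESeq2.

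Factors that feed or control complex I were also mostly uncalled. Of 9 tested regulators of mitochondrial genes, including Nrf1, Gabpa and Tfam, 0 were called, where 22.0% of all genes tested were. Also, 0 of them had an unadjusted p under 0.05 in edgeR's test or were called by DESeq2. Their log2 fold changes lay between -0.11 and 0.07, and the coactivator gene Ppargc1a had 0 counts in all 4 libraries. Of 13 tested genes of iron-sulfur cluster assembly, Isca2 rose (0.30 ± 0.08, adjusted p = 0.038 by edgeR) and 0 fell. DESeq2 did not call Isca2 (adjusted p = 0.165). Of 11 tested genes of ubiquinone synthesis 0 were called by edgeR or by DESeq2. The log2 fold change was below 0 in 9, against 49.7% of all genes tested. At an unadjusted p under 0.05 in edgeR's test there were 2, against 4430 of all 12316 genes tested. Over all these nuclear lists, with Ndufa4l2 left aside, 3 genes rose and 4 fell, and with 1 library left out 0 to 2 rose and 0 to 2 fell; without untreated replicate 2 there were 0 of either.

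**Figure D4:**
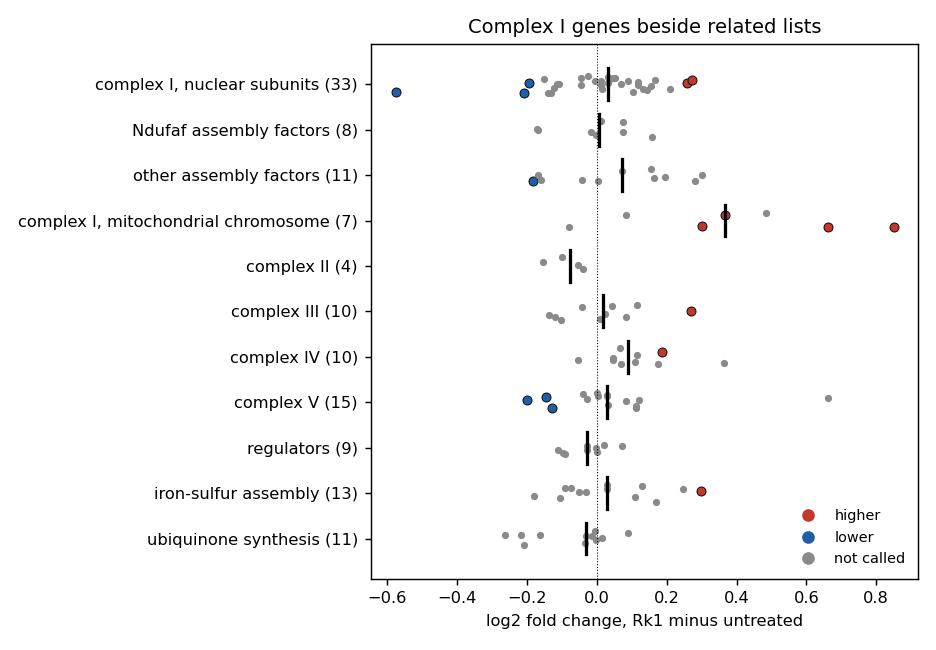
Log2 fold change (Rk1 minus untreated, x axis) of each tested gene in the complex I lists and in related lists, with the number of genes in parentheses and the list median as a black bar; vertical scatter within a row has no meaning. The genes of the mitochondrial chromosome have a median of 0.37, while the medians of the other lists drawn lie between -0.08 and 0.09.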

How the data were processed

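For 4 libraries, raw read counts by Ensembl gene were deposited as 1 table that also holds symbols, exon lengths and positions. HISAT2 and HTSeq appear in the submitters' processing notes. The strand setting was not given in the sources used here. Per the labels' protocols, total RNA was extracted with Trizol and made into libraries with the VAHTS Universal V6 kit. Genes were filtered with filterByExpr (minimum count 10, minimum total 15), scaled by TMM and tested with edgeR 4.0.16 (quasi-likelihood F-test, two-sided, group as the only term, 2 residual degrees of freedom, R 4.3.3) over 12316 genes with Benjamini-Hochberg adjustment at 0.05. The SE is the log2 fold change over the square root of F, and 95% intervals use the moderated degrees of freedom and are not adjusted for the number of genes. The fit was also run on simulated counts that gave every gene the same dispersion, unlike real data, and no call above rests on that run. CPM per kilobase divides by the deposited exon length.

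The members, lists and alternatives were chosen with earlier results of these data known. Values are printed for the core subunits except 1, which is not reported here, every Ndufaf gene, up to 15 called members in each direction, the members with the largest and smallest log2 fold change, up to 3 called genes of each related list, and Ndufa4l2; other members are named for their role or extreme value. Alternatives were DESeq2 1.42.0, limma-voom (limma 3.58.1), other scalings and filters, robust dispersions, the mitochondrial chromosome left out, a replicate block and each library left out in turn. The 2 libraries of a group were not copies of each other: the chi-square of their counts over its degrees of freedom was 4.67 with Rk1 and 4.57 untreated, above sampling noise.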

Additional observations from a re-analysis of the deposited data

How the results depend on the processing

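Ndufa12 and Ndufs5 were called in the same direction under all 13 alternatives. Of the members, 2 rose and 3 fell in the reported fit. By DESeq2, 2 rose and 1 fell, where 14.5% of all genes tested were called, against 22.0% in the reported fit. That share was 24.9% with robust dispersions and 26.1% with a replicate block. With each library left out in turn, the 5 called members kept their direction. Not all 5 were called in each such fit, and fewer of all genes tested were called there. Ndufa4 was also called lower with robust dispersions, under the block and without Rk1 replicate 2, and Ndufb7 without Rk1 replicate 1. The median of subunits ran from 0.0071 to 0.0277 when a library was left out, the lowest without untreated replicate 2, and that of assembly factors from -0.0462 to 0.0514. Of the related lists outside the mitochondrial chromosome, with Ndufa4l2 left aside, 3 genes were higher and 4 lower. There were 1 higher by DESeq2, 5 with robust dispersions, and 0 to 2 with a library left out; 2 were lower with every gene kept, and 0 to 2 with a library left out. Fits with a library left out rest on fewer samples. The cause of these differences between settings was not tested. The titles share numbers between groups, and with a replicate block 3 members were higher and 4 lower (Ndufv3 and Ndufa4 added) and 5 related genes were higher. Nothing says that the numbers pair libraries, and deviations of same-numbered libraries correlated across genes at 0.080. About 100 counts a library limit what can be detected for Ndufaf2 and Ndufaf6.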

Other observations

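Per transcript length, Ndufa4l2 made up 13.8% and 12.2% of the summed level of Ndufa4 and Ndufa4l2 in the Rk1 libraries, against 2.96% and 2.11% in the untreated libraries. The sum of both was 157 and 166 CPM per kilobase with Rk1 and 163 and 160 CPM per kilobase untreated, so the groups overlapped in the sum and not in the share.

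Counts of the 7 mitochondrial-chromosome complex I genes were 4.09 and 4.06 times those of the nuclear subunits in the Rk1 libraries, against 3.35 and 3.34 times in the untreated libraries. Nuclear subunits, without Ndufa4, had 42816 and 42877 counts with Rk1 and 48032 and 43409 counts untreated, and the mitochondrial genes 174920 and 174148 counts with Rk1 and 160691 and 144915 counts untreated. Most of the mitochondrial sum came from Mt-nd1 and Mt-nd2, with 58674 and 77958 counts in Rk1 replicate 1 and 62147 and 70635 in untreated replicate 1. The ratio does not describe each of the 7 genes, since the log2 fold change was 0.08 for Mt-nd1 and -0.08 for Mt-nd6, both uncalled. Mt-nd4 was not called either (0.48 ± 0.15, adjusted p = 0.061 in edgeR's test). Its log2 fold change nevertheless lay above the 0.30 of Mt-nd2, which was called.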
